A study of Mus musculus with 24 samples.

Results

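The genes described here encode the outer building blocks of the cornified cell and its envelope: the small proline-rich proteins (Sprr), the late cornified envelope proteins (Lce), involucrin (Ivl) and the fused S100 proteins filaggrin (Flg), filaggrin-2 (Flg2), hornerin (Hrnr) and repetin (Rptn). They were chosen by name, as non-control probes for genes called Sprr or Lce followed by a digit, together with Flg, Flg2, Hrnr, Ivl and Rptn. This gave 42 genes with 47 probes, out of 36610 names with 56605 probes on the array. Where a gene had more than 1 probe, the probe with the highest mean log2 signal stood for it. Of the 42 genes, 40 were well above background on all 24 arrays and were tested among 22058 genes. The other 2, Sprr2a1 and Sprr3, were not well above background on any array, so no difference is given for them.

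In the last stage of keratinocyte differentiation, transglutaminases crosslink involucrin, loricrin, Sprr and Lce proteins under the plasma membrane, and the envelope they form replaces the membrane. Sprr proteins act as short crossbridges, Lce proteins are laid down late, and filaggrin and its relatives bundle keratin filaments or join the envelope. These genes lie side by side in the epidermal differentiation complex, and Lce3 and Sprr2 genes are known for their induction when skin is wounded or inflamed. In a hair follicle such genes are used in the infundibulum, the root sheaths and the attached epidermis.

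Whole vibrissa (whisker) follicles were isolated from B6C3F1 mice at postnatal day 9 and kept for 24 h in RPMI 1640 medium with 10% fetal bovine serum, which every group received. Control follicles had no further addition. The 7 treated groups received panthenyl ethyl ether (PEE, an ether of panthenol, 0.3%), pyridoxine hydrochloride (PH, 0.015%), tocopherol acetate (TA, 0.024%), or these in the mixtures PEE-PH, PEE-TA, PH-TA and PEE-PH-TA, each compound at that same dose. Per the design text, 1 sample was the RNA of 10 follicles and the 3 samples of a group came from 3 independent experiments. There were 24 one-colour Agilent arrays, 3 for each group, spread so that every one of 3 slides held 1 array per group. A sample mixes all cells of the follicle, at 1 dose and 1 time. The study's title concerns hair shaft elongation, which is not analysed here.

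Members of the Lce3 and Sprr2 groups have similar transcripts, so the 60-base array probes behind the main results are shown first, on mouse build mm9 and from 5′ to 3′. Capitals mark bases that differ from the most similar probe of another member, which is given with the number of identical bases.
Lce3b (chr3:92737872-92737931, + strand; 54 of 60 bases as in Lce3c): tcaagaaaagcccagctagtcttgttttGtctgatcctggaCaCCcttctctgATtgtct
Lce3c (chr3:92749506-92749565, + strand; 54 of 60 as in Lce3b): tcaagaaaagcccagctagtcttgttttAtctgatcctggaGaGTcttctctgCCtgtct
Lce3d (chr3:92762368-92762427, + strand; 41 of 60 as in Lce3c, at an offset): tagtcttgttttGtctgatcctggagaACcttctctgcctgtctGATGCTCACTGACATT
Sprr2d (chr3:92144721-92144780, + strand; 34 of 60 as in Sprr2e): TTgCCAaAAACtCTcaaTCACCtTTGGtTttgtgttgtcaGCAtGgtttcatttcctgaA
Sprr2e (chr3:92157288-92157347, + strand; 34 of 60 as in Sprr2d): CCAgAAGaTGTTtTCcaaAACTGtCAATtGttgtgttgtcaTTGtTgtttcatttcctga
The Lce3b and Lce3c probes differ at 6 bases only, so some cross-hybridisation between this pair is possible. The 41 bases that the Lce3d probe shares with that of Lce3c lie in their overlap, where few bases differ. Some cross-hybridisation with Lce3d is therefore possible too. The agreement of Lce3b, Lce3c and Lce3d is not that of independent measurements. The array annotation lists several RefSeq genes for the probes of Sprr2a2, Lce1a2 and Lce1c, and the source of their signal is uncertain.

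Values below are log2 signals relative to the 75th percentile of the same array, so 0 is the level of that percentile. Differences are on this log2 scale with ± their standard error from limma, and a gene is said to have risen or fallen only where its Benjamini-Hochberg adjusted p over all genes tested was under 0.05. Arrays of the same group correlated at r = 0.993 to 0.997 across genes, and an array had 58.3 to 62.5% of its spots well above background. No probe spot of these genes was saturated. The 75th percentile itself moved with the groups, from 142 to 147 units of signal with PEE, 155 to 190 in control and 203 to 248 with PH-TA. Calls were therefore also made in a fit with this array signal as a covariate, and single calls and group counts that it changed are given. The 7 comparisons with control share the same 3 control arrays. Groups lying wholly above or below the control arrays were common. Of all genes this held for 32.6% with PEE, 26.5% with PH and 22.7% with TA. With the mixtures it held for 49.9% (PEE-PH), 41.1% (PEE-TA), 44.6% (PH-TA) and 32.6% (PEE-PH-TA).

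PEE raised 5 of 6 Lce3 genes and lowered Ivl, Sprr4, Lce6a and Sprr2a3, and most of these changes were also seen when PEE was given in mixtures. PEE alone changed 10 of the 40 tested members, 6 higher and 4 lower, while 10.9% of all genes were called, 5.2% higher and 5.69% lower. PH alone raised 6 and lowered 0, against 5.25% of all genes (1.6% higher, 3.65% lower). TA alone changed 0, against 1.83% (0.399% higher, 1.43% lower), and also 0 after quantile normalization. At an unadjusted p under 0.05 by limma, 13 members differed with TA, against 17.1% of all genes. PEE-PH changed 28, 20 higher and 8 lower, against 35.9% of all genes (14.9% and 20.9%). PEE-TA changed 19, 15 higher and 4 lower, against 25.5% (10.2% and 15.3%). PH-TA changed 5, 3 higher and 2 lower, against 29.6% (12.1% and 17.5%). PEE-PH-TA changed 19, 14 higher and 5 lower, against 16.5% (7.78% and 8.72%). The median difference of the 40 members with PEE-PH-TA was 0.37, beside -0.0017 for all genes tested. In these bulk samples, fewer cells of a type and less RNA per cell cannot be told apart.

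Some of these counts rested on single arrays. Without control replicate 2 the count with PEE was 6. With PH it was 0 without PH replicate 2, 1 without control replicate 2, 2 without control replicate 1 or 3, and 3 without PH replicate 1. With PH-TA it was 1 without control replicate 3, PH-TA replicate 1 or PH-TA replicate 2, 3 without control replicate 1 or 2, and 10 without PH-TA replicate 3. With the array signal as a covariate 2 members remained past the threshold with PH, 0 with PH-TA and 8 with PEE-PH (4 higher, 4 lower). The split of the PH-TA calls also depended on scaling, with 8 higher and 0 lower after quantile normalization, 11 and 0 with normexp background correction and 7 and 0 in the value table of the authors.

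**Figure D1:**
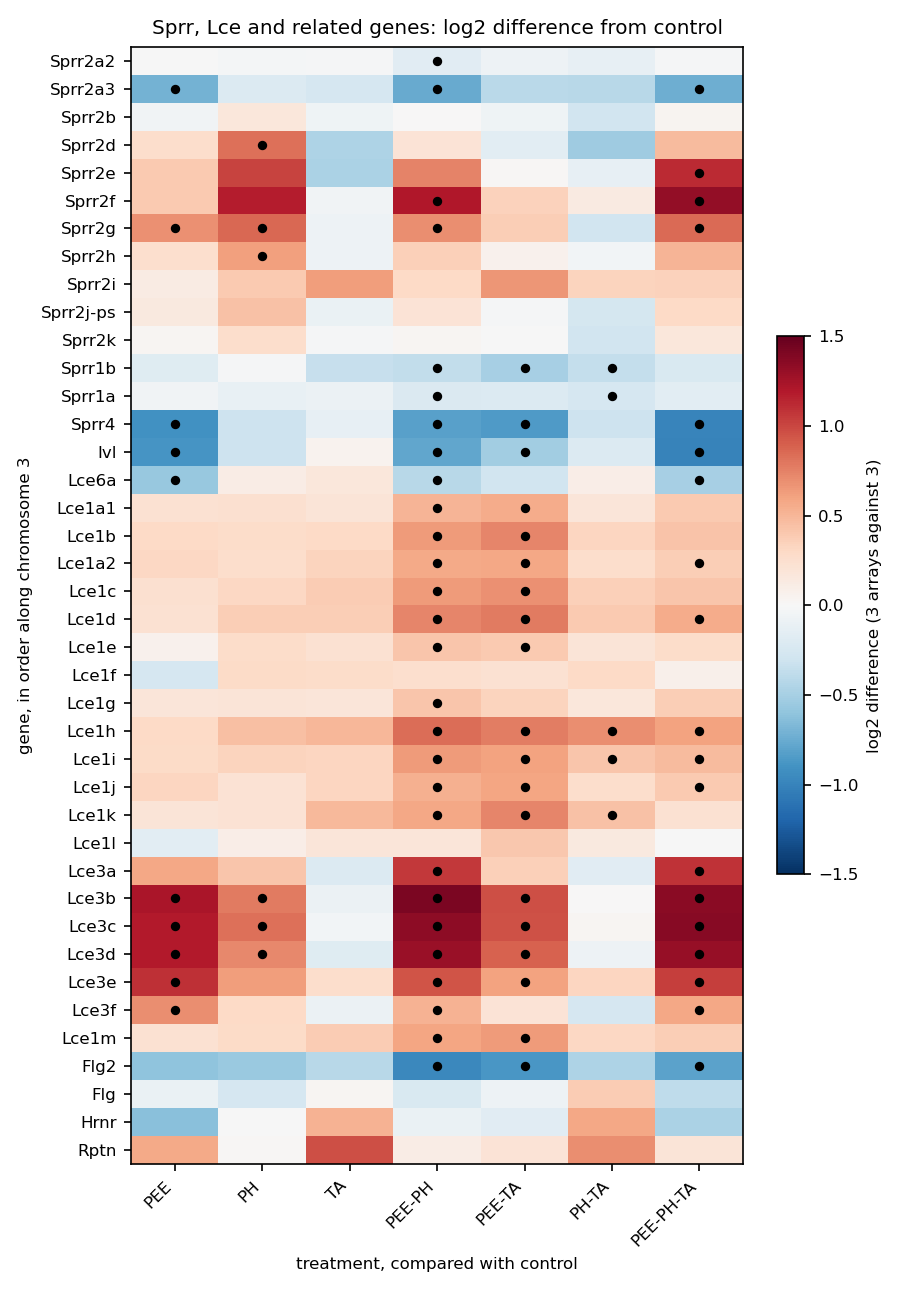
Log2 difference from control of the 40 tested genes (rows, in order along chromosome 3) in the 7 treatments (columns), each from 3 arrays against the same 3 control arrays. Red is higher, blue is lower and a dot marks an adjusted p under 0.05; the Lce3 rows are red in each treatment that contains PEE, and Sprr4 and Ivl are blue in each of them.

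The late cornified envelope genes of the Lce3 group, which code for proteins laid down in damaged or inflamed epidermis, gave the largest rises with PEE among the members. On the control arrays Lce3c read 3.78, 3.98 and 4.21. With PEE it read 5.37, 4.96 and 5.22, and with PEE-PH-TA 5.45, 5.15 and 5.46. All arrays of both groups lay above all control arrays, and Lce3c rose by 1.19 ± 0.17 with PEE (limma adjusted p = 0.000154) and by 1.36 ± 0.17 with PEE-PH-TA (limma adjusted p = 3.01e-05). PEE-PH gave 5.17, 5.55 and 5.29 and PEE-TA gave 5.28, 4.68 and 4.86, also above every control array. The differences were 1.35 ± 0.17 (limma adjusted p = 1.25e-05) and 0.95 ± 0.17 (limma adjusted p = 0.000625). Without PEE, TA gave 3.88, 4.18 and 3.79 and PH-TA 4.14, 4.07 and 3.85, which lay in the range of the control arrays.

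Lce3b read 3.08, 3.53 and 3.73 in control, 4.82, 4.40 and 4.80 with PEE, 4.63, 5.12 and 4.81 with PEE-PH and 4.91, 4.58 and 4.90 with PEE-PH-TA. Each of these 3 groups lay above the control arrays. The rises were 1.23 ± 0.20, 1.41 ± 0.20 and 1.35 ± 0.20 (limma adjusted p = 0.00067, 4.22e-05 and 0.000166). Lce3d read 4.21, 4.58 and 4.78 in control and 5.87, 5.51 and 5.75 with PEE, with no overlap. It rose by 1.19 ± 0.19 under PEE and by 1.31 ± 0.19 under PEE-PH-TA (limma adjusted p = 0.00067 and 0.000169). The calls of Lce3b, Lce3c and Lce3d with PEE, PEE-PH and PEE-PH-TA held under all alternatives tried.

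Lce3e, whose probe shares at most 27 of 60 bases with that of another member, moved in the same direction. It read 0.45, 0.96 and 0.87 in control and 1.90, 1.81 and 1.85 with PEE, a rise of 1.09 ± 0.21 (limma adjusted p = 0.00265). With PEE-PH-TA it read 1.82, 1.43 and 2.14, and the rise was 1.04 ± 0.21 (limma adjusted p = 0.00229). Every array of both groups was above the control arrays. Lce3a read 0.17, 0.10 and 0.32 in control and 1.03, 0.28 and 1.03 with PEE, where the second PEE array fell inside the control range and the difference of 0.58 ± 0.27 did not pass (limma adjusted p = 0.196). With PEE-PH, at 0.95, 1.56 and 1.27, Lce3a was above every control array and rose by 1.06 ± 0.27 (limma adjusted p = 0.00613), although not with the array signal as a covariate (adjusted p = 0.234). Lce3f rose by 0.69 ± 0.18 with PEE (limma adjusted p = 0.0178), a call that ended without control replicate 1 or 2 or PEE replicate 1 or 3, with adjusted p up to 0.0878, and with the covariate (0.0731).

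In all, PEE raised 5 of 6 Lce3 genes, PEE-PH 6, PEE-TA 4 and PEE-PH-TA 6, while 0 fell. With the covariate these counts were 4, 3, 3 and 5. The calls it ended in the mixtures, beside Lce3a, were those of Lce3e with PEE-PH (adjusted p = 0.104) and PEE-TA (0.164) and of Lce3f with PEE-PH (0.295) and PEE-PH-TA (0.0629). The call of Lce3f with PEE-PH ended without control replicate 1 or 2 or PEE-PH replicate 2 or 3 (limma adjusted p up to 0.122). With PEE-PH-TA it ended without control replicate 1 or 2 or PEE-PH-TA replicate 1 or 3 (up to 0.129). That of Lce3e with PEE-TA ended without control replicate 1 or 3 or PEE-TA replicate 1 or 3 (up to 0.187). The median Lce3 difference with PEE, PEE-PH, PEE-TA and PEE-PH-TA was 1.14, 1.18, 0.75 and 1.19. The effect of PEE averaged over the 4 backgrounds without and with the other compounds, raised 6 of 6 with a median of 0.88. It changed 24 of the 40 members (18 higher, 6 lower), against 27% of all genes tested (12.8% and 14.2%). Within the 3 slides the Lce3 median of this average was 1.08, 0.56 and 1.00. All 6 average-effect calls held without each array in turn and with the array signal as a covariate.

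**Figure D2:**
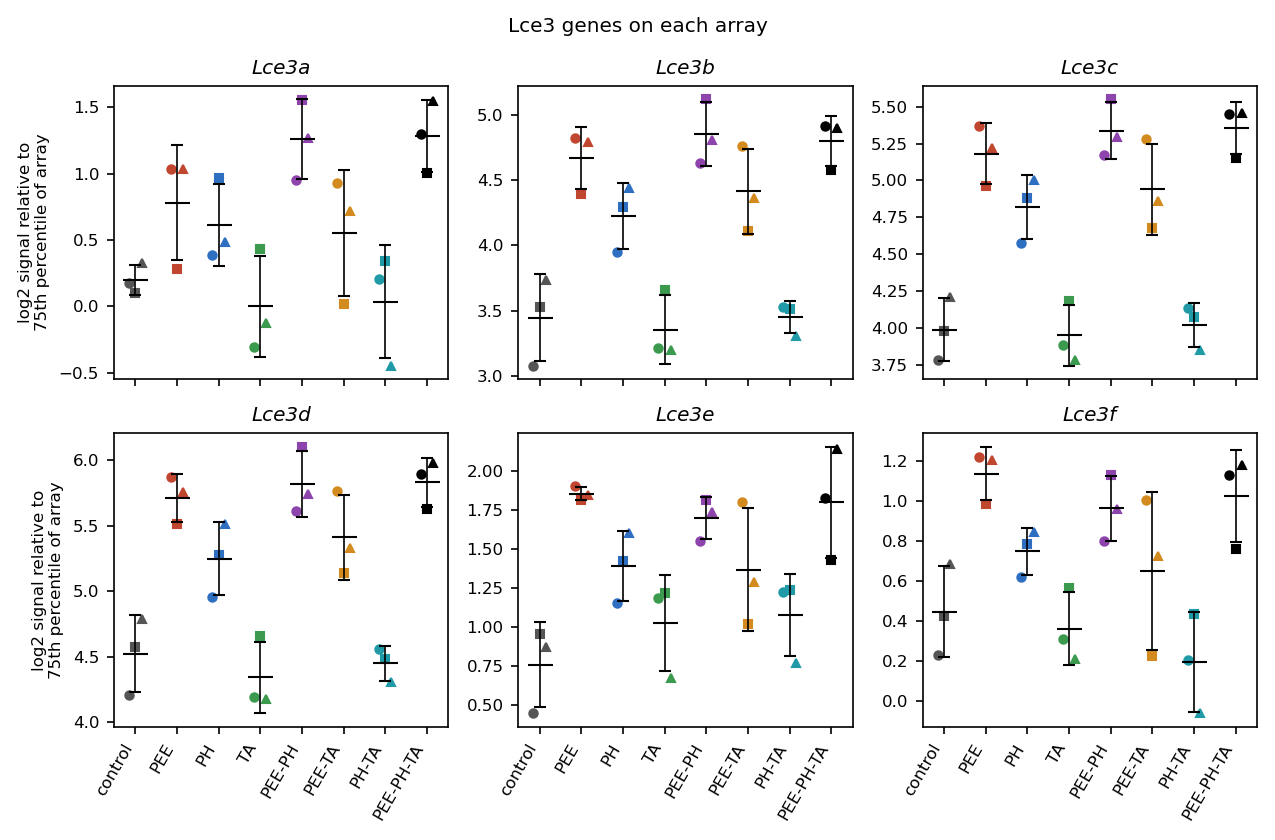
Log2 signal relative to the 75th percentile of the array for the 6 Lce3 genes in the 8 groups. Points are single arrays (circle, square and triangle for replicates 1, 2 and 3) with the group mean and SD; Lce3b, Lce3c and Lce3d lie above control with PEE, PEE-PH, PEE-TA and PEE-PH-TA , and Lce3b and Lce3c stay inside the control range with TA and PH-TA.

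PH alone raised Lce3b (0.78 ± 0.20, limma adjusted p = 0.03), Lce3c (0.83 ± 0.17, 0.00848) and Lce3d (0.72 ± 0.19, 0.0365). Lce3c read 4.58, 4.88 and 5.0 with PH, above the control arrays. Its call ended without PH replicate 2 (adjusted p = 0.05) and held with the covariate (adjusted p = 0.0264). The call of Lce3b ended without control replicate 1 or 2 or PH replicate 2 or 3 (adjusted p up to 0.127). That of Lce3d ended without any control array or PH replicate 2 or 3 (adjusted p up to 0.136). Both ended with the covariate, at adjusted p = 0.0735 and 0.0929. The average effect of PH changed 11 members (10 higher, 1 lower), against 31.3% of all genes (13.9% and 17.4%), and 4 of these were Lce3 genes, with 0 of the 11 left under the covariate.

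The promoters of Lce3c and Lce3d are shown, which are the only Lce3 promoters with 2 matches to the motif below. Lce3b rose with these genes, and its promoter holds no match. They come from RefSeq (build GRCm38.p6), which held 39 of the 42 members, and run from 250 bases before to 50 after the gene's start. Capitals mark TGACNNNGC, the core of the antioxidant response element bound by NRF2, on either strand.
Lce3c (chr3:92944236-92944535, + strand): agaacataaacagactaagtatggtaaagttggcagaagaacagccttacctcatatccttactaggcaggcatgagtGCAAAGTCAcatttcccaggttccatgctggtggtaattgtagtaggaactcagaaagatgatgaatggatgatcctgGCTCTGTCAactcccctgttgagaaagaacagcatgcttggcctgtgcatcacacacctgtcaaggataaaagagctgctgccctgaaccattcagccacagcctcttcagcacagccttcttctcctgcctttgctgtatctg
Lce3d (chr3:92957140-92957439, + strand): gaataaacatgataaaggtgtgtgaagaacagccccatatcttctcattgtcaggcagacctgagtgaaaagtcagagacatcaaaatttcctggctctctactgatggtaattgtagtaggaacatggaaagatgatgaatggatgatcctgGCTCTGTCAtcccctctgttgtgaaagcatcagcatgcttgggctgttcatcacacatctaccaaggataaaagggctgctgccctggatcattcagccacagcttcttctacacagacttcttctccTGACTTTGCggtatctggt
The motif was found in 3 of 6 Lce3 promoters (Lce3c, Lce3d and Lce3e) and in 12.4% of the 32851 promoters of this length. It was not found in those of Lce3a, Lce3b and Lce3f, which also rose in the average effect of PEE. The second match in Lce3d lies 31 bases after the gene's start. Over all members it was found in 8 of 39, also in Lce1d, Lce6a, Flg2, Sprr1a and Sprr2f. The other motif searched, TGANTCA of AP-1, was found in 0 of 6 Lce3 and 0 of 13 Lce1 promoters and in 7.81% of all. A match is a string of letters, and binding was not measured.

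The Lce1 genes, which encode late envelope proteins of normally differentiating epidermis, were called higher in mixtures of compounds. Of 14 tested, 0 were called with PEE, PH or TA alone. PEE-PH raised 12, PEE-TA 11, PH-TA 3 and PEE-PH-TA 5, and 0 fell. With PEE-PH-TA the count was 1 without control replicate 3 or PEE-PH-TA replicate 1 and 3 without PEE-PH-TA replicate 3. With PH-TA it was 1 without control replicate 1 or 3 or PH-TA replicate 1 or 2, and with PEE-PH it was 8 without control replicate 3. At an unadjusted p under 0.05 by limma, 4, 6 and 8 were higher with PEE, PH and TA and 0 lower. Of all genes, 25.1%, 20.7% and 17.1% passed that unadjusted p in either direction. After quantile normalization 1 rose with PEE and 0 with PH or TA. The median Lce1 difference was 0.23, 0.28 and 0.32 for the single compounds, 0.58 for PEE-PH, 0.60 for PEE-TA and 0.38 for PEE-PH-TA. With the covariate PEE raised 1 Lce1 gene, PEE-PH 1, PEE-TA 9, PEE-PH-TA 3 and PH-TA 0, where the median turned to -0.04.

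Lce1h read 1.73, 1.83 and 1.44 in control, 2.64, 2.52 and 2.36 under PEE-PH and 2.46, 2.41 and 2.43 under PEE-TA. Both mixtures were above every control array, with rises of 0.84 ± 0.14 and 0.76 ± 0.14 (limma adjusted p = 0.000228 and 0.000974). With PH-TA it read 2.47, 2.43 and 2.18 and rose by 0.69 ± 0.14 (limma adjusted p = 0.00199), a call that ended with the covariate (adjusted p = 0.443). Lce1d, Lce1b and Lce1k rose by 0.78 ± 0.16, 0.73 ± 0.16 and 0.73 ± 0.16 with PEE-TA (limma adjusted p = 0.00224, 0.00341 and 0.00273). These calls held without each array in turn and with the covariate. The average effect of PEE raised 9 of 14 Lce1 genes with a median of 0.22, and 2 members of the group, Lce1f and Lce1l, were called in none of the comparisons with control or average effects.

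The Sprr2 genes encode crossbridging proteins that stressed and differentiating keratinocytes make. Of 11 tested, PEE raised 1 and lowered 1, PH raised 3 and lowered 0, PEE-PH raised 2 and lowered 2, and PEE-PH-TA raised 3 and lowered 1. With TA, PEE-TA and PH-TA 0 were called, and quantile normalization gave 0, 1 and 0 calls. At an unadjusted p under 0.05 limma gave 1 higher and 1 lower for TA and for PEE-TA, and 0 and 5 for PH-TA. In either direction, 17.1%, 37.7% and 41.3% of all genes passed that unadjusted p with TA, PEE-TA and PH-TA. The genes called higher were among Sprr2d, Sprr2e, Sprr2f, Sprr2g and Sprr2h, and those called lower were Sprr2a3 and, with PEE-PH alone, Sprr2a2 (adjusted p = 0.0134). Without control replicate 2 PEE-PH and PEE-PH-TA each raised 0 and lowered 1, PEE raised 0 and lowered 0, and PH raised 0. The count with PH was also 0 without control replicate 3 or PH replicate 1 or 2, 1 without control replicate 1 and 5 without PH replicate 3, and PEE-PH-TA raised 1 and lowered 1 without PEE-PH-TA replicate 3. With the covariate PEE raised 0 and lowered 0, PH raised 1, PEE-PH raised 0 and lowered 1, and PEE-PH-TA raised 3 and lowered 1. Sprr2f read 2.33, 1.61 and 2.32 in control, 3.03, 3.30 and 3.55 with PEE-PH and 3.47, 2.89 and 3.86 with PEE-PH-TA. Both groups lay above control, and the rises were 1.21 ± 0.34 and 1.32 ± 0.34 (limma adjusted p = 0.0105 and 0.0123). Both calls ended without control replicate 2 (adjusted p = 0.0597 and 0.0679), and the second also without PEE-PH-TA replicate 3 (0.059). With the covariate the first ended (adjusted p = 0.126) and the second held (0.0238).

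With PH alone Sprr2f read 3.56, 3.58 and 2.67, above the control arrays but not past the threshold (1.18 ± 0.34, limma adjusted p = 0.0512). Sprr2e read -0.61, -0.80 and -0.54 in control and 0.18, 0.30 and 0.92 with PEE-PH-TA, with no overlap, and rose by 1.12 ± 0.32 (limma adjusted p = 0.0207). That call ended without control replicate 2 (adjusted p = 0.071) or PEE-PH-TA replicate 3 (0.094). Over all backgrounds PH raised Sprr2f by 0.79 ± 0.17 and Sprr2e by 0.70 ± 0.16 (limma adjusted p = 0.00239 and 0.00305), calls that held without each array and ended with the covariate (adjusted p = 0.248 and 0.104).

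Sprr2g read 0.65, 0.09 and 0.47 in control, 1.18, 1.03 and 1.06 with PEE and 1.29, 1.16 and 1.32 with PEE-PH-TA. All arrays of both groups were above control. The rise with PEE-PH-TA was 0.86 ± 0.21 (limma adjusted p = 0.0082), with adjusted p = 0.05 without control replicate 2, and the average effect of PEE was 0.53 ± 0.10 (limma adjusted p = 0.000771), held without each array and with the covariate. With PEE alone Sprr2g rose by 0.69 ± 0.21 (limma adjusted p = 0.0404), a call that ended without control replicate 2 or 3 or any PEE array (adjusted p up to 0.186) and with the covariate (0.218). Sprr2a3 moved the other way, from 6.10, 6.21 and 5.96 in control to 5.41, 5.33 and 5.27 with PEE-PH and 5.36, 5.28 and 5.43 with PEE-PH-TA. All arrays of both groups were below control, and it fell by 0.75 ± 0.18 and 0.73 ± 0.18 (limma adjusted p = 0.0033 and 0.00834). With PEE alone it fell by 0.71 ± 0.18 (limma adjusted p = 0.015), a call that ended without control replicate 2 (adjusted p = 0.0664) or PEE replicate 2 (0.0696) and with the covariate (0.123). Its second probe fell by 0.91 ± 0.24 with PEE-PH (limma adjusted p = 0.00669).

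**Figure D3:**
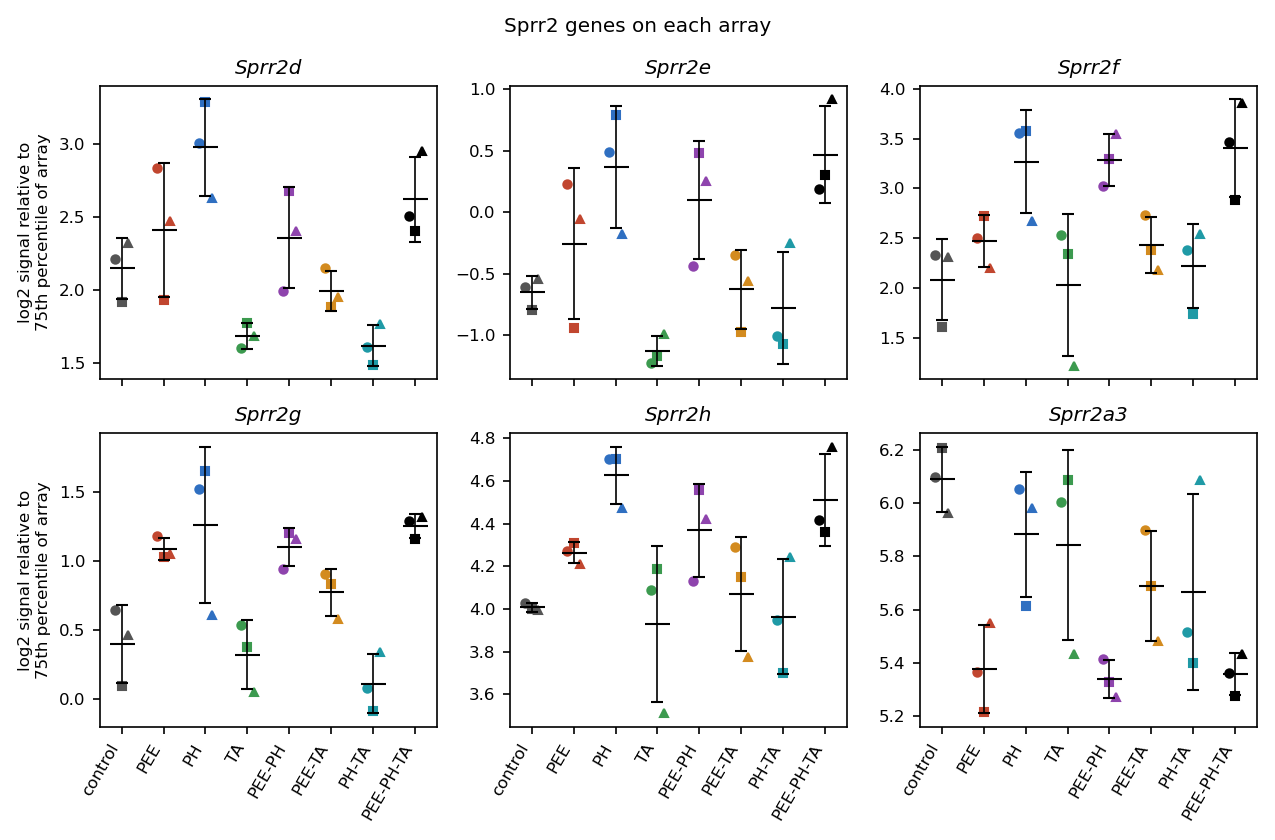
Log2 signal relative to the 75th percentile of the array for 6 Sprr2 genes in the 8 groups, with points for single arrays (circle, square and triangle for replicates 1, 2 and 3) and the group mean and SD. Sprr2d, Sprr2f and Sprr2h are above the control arrays with PH, and Sprr2a3 is below them with PEE, PEE-PH and PEE-PH-TA.

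The promoters of Sprr2d and Sprr2f are shown with TGANTCA (AP-1) and TGACNNNGC in capitals, in the same window and build as above.
Sprr2d (chr3:92338890-92339189, + strand): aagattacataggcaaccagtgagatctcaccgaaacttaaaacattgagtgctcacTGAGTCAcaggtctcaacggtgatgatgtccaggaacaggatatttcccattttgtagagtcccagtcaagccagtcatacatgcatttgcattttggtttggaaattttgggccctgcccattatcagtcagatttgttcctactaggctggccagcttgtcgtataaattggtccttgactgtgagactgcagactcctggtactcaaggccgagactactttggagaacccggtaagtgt
Sprr2f (chr3:92364937-92365236, + strand): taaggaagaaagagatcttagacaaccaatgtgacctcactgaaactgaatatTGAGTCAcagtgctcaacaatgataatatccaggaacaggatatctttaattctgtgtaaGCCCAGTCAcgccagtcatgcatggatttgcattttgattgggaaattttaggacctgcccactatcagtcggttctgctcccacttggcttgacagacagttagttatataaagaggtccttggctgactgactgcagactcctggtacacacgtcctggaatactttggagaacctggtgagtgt
The AP-1 string was found in 7 of 10 Sprr2 promoters, in both Sprr1 promoters, in 3 of 4 fused S100 promoters and in that of Ivl. In Sprr2d it starts 193 bases and in Sprr2f 197 bases before the gene's start. Sprr2f also holds TGACNNNGC, on the other strand, 137 bases before its start.

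Adding TA to PH was set against PH alone, a comparison added after the data were seen. Sprr2d read 2.21, 1.92 and 2.32 in control, 3.01, 3.29 and 2.63 with PH and 1.61, 1.48 and 1.76 with PH-TA. The PH arrays were all above control and the PH-TA arrays all below it. From PH to PH-TA, Sprr2d fell by 1.36 ± 0.21 (limma adjusted p = 0.0244), and Sprr2g (-1.15 ± 0.21, 0.0349), Sprr2k (-0.54 ± 0.11, 0.0478) and Lce3c (-0.80 ± 0.17, 0.0478) were also lower. These 4 members were the only ones called, against 0.322% of all genes (0.0907% higher, 0.231% lower). The count was 0 without PH replicate 1 or 2 or PH-TA replicate 1 or 2, 8 without PH-TA replicate 3 and 0 with the covariate, and the call of Lce3c ended without PH replicate 3 too. With the replicate block 2 were called, and Lce3c and Sprr2k were not (adjusted p = 0.0611 and 0.053). Over all backgrounds Sprr2d fell by 0.49 ± 0.11 with TA (limma adjusted p = 0.0115) among 4 members called (1 higher, 3 lower; 7.99% of all genes, 2.78% and 5.2%), and this ended with the covariate (adjusted p = 0.204).

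Adding PEE to PH-TA, likewise compared after the data were seen, raised 13 members and lowered 4, against 13.5% of all genes (8.61% and 4.91%). All 6 Lce3 genes rose, with a median of 1.29, and so did 7 of 11 Sprr2 genes, with a median of 0.55. The call of Lce3e ended without PH-TA replicate 1 or 3 or PEE-PH-TA replicate 1 or 3 (limma adjusted p up to 0.122). The Sprr2 count was 2 without PH-TA replicate 1 or 2, 4 without PEE-PH-TA replicate 1, 3 without PEE-PH-TA replicate 3 and 0 with the covariate. Sprr2d rose by 1.00 ± 0.21 and Sprr2g by 1.14 ± 0.21 (limma adjusted p = 0.00542 and 0.00174). Without PH-TA replicate 1 the count was 10, and with the covariate it was 4, all of them Lce3 genes. The difference in Lce3c, 1.33 ± 0.17 (limma adjusted p = 6.15e-05), held there (adjusted p = 0.00173).

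Ivl, Sprr4 and Lce6a fell with PEE. Ivl, the envelope scaffold protein laid down first, read -0.31, -0.25 and -0.51 in control, -1.48, -1.25 and -0.98 with PEE and -1.48, -1.13 and -1.45 with PEE-PH-TA. The arrays did not overlap, and Ivl fell by 0.88 ± 0.16 with PEE (limma adjusted p = 0.00136) and by 1.00 ± 0.16 with PEE-PH-TA (limma adjusted p = 0.000282). Within the slides its average effect of PEE was -0.70, -0.60 and -0.74. Sprr4, a small proline-rich protein gene lying apart from the Sprr2 array, read 5.32, 5.47 and 5.28 in control, 4.30, 4.31 and 4.74 with PEE and 4.38, 4.49 and 4.23 with PEE-PH-TA. It fell by 0.91 ± 0.13, 0.81 ± 0.13, 0.85 ± 0.13 and 0.99 ± 0.13 with PEE, PEE-PH, PEE-TA and PEE-PH-TA (limma adjusted p = 0.000153, 0.000113, 0.000172 and 4.62e-05), with every array below control.

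Lce6a, an outlying member of the late envelope family, read 1.01, 1.38 and 1.11 in control and 0.51, 0.68 and 0.60 with PEE. The groups did not overlap, and it fell by 0.57 ± 0.14 (limma adjusted p = 0.0135). This call ended without control replicate 2 (adjusted p = 0.0804) or PEE replicate 1 (0.0527) and with the covariate (0.171). The average effect of PEE was -0.68 ± 0.08 for Ivl, -0.71 ± 0.06 for Sprr4 and -0.54 ± 0.07 for Lce6a (limma adjusted p = 3.2e-06, 1.72e-07 and 1.14e-05), and these calls held under all alternatives tried. Sprr1a and Sprr1b, the Sprr genes of differentiating and stressed epidermis, differed by small amounts. Sprr1b fell by 0.50 ± 0.11 with PEE-TA (limma adjusted p = 0.00277) and by 0.37 ± 0.11 with PEE-PH (0.0119), where its second probe gave -0.15 ± 0.10 (0.261) and the covariate ended the call (0.0566). Sprr1a gave -0.22 ± 0.08 with PEE-PH (limma adjusted p = 0.0422), which ended without each of the 6 arrays in turn (adjusted p up to 0.111) and turned to 0.045 after quantile normalization and 0.033 in the value table of the authors.

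Of the fused S100 genes, Flg2 and Hrnr fell with PEE on average, and Flg and Rptn passed in no comparison. With PEE alone 0 of the 4 were called. Flg2 read 0.60, 0.60 and 0.55 in control, -0.34, -0.49 and -0.31 under PEE-PH, -0.15, -0.07 and -0.65 under PEE-TA, and -0.44, -0.31 and 0.10 in the full mixture PEE-PH-TA. All 3 groups were below control, and it fell by 0.97 ± 0.20, 0.87 ± 0.20 and 0.80 ± 0.20 (limma adjusted p = 0.00104, 0.00378 and 0.00873). A second Flg2 probe fell by 0.99 ± 0.18 with PEE-PH. With PEE alone Flg2 read -0.25, -0.05 and 0.26, below the control arrays. Its call for the average effect of PEE held without each array in turn and ended without replicate number 1 (limma adjusted p = 0.104). Hrnr read -0.62, -0.93 and -1.21 in control and -1.41, -1.29 and -1.94 with PEE, below control but short of the threshold (-0.63 ± 0.24, limma adjusted p = 0.101). Its average effect of PEE was -0.61 ± 0.12 (limma adjusted p = 0.000657).

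Flg, the precursor of the filament-bundling protein of the granular layer, read 2.95, 2.46 and 2.25 in control and 2.29, 2.72 and 2.33 with PEE, which overlapped. The difference was -0.10 with a 95% interval from -0.71 to 0.50, so with 3 arrays a group a fall or a rise within it remains possible. Rptn read -0.55, -0.65 and -1.06 in control and 0.36, 0.14 and 0.14 with TA. The TA arrays were all higher, yet the difference of 0.97 ± 0.29 did not pass (limma adjusted p = 0.0972). For Flg the 2 probes differed in sign with PEE-PH, at -0.23 and 0.24, neither past the threshold.

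**Figure D4:**
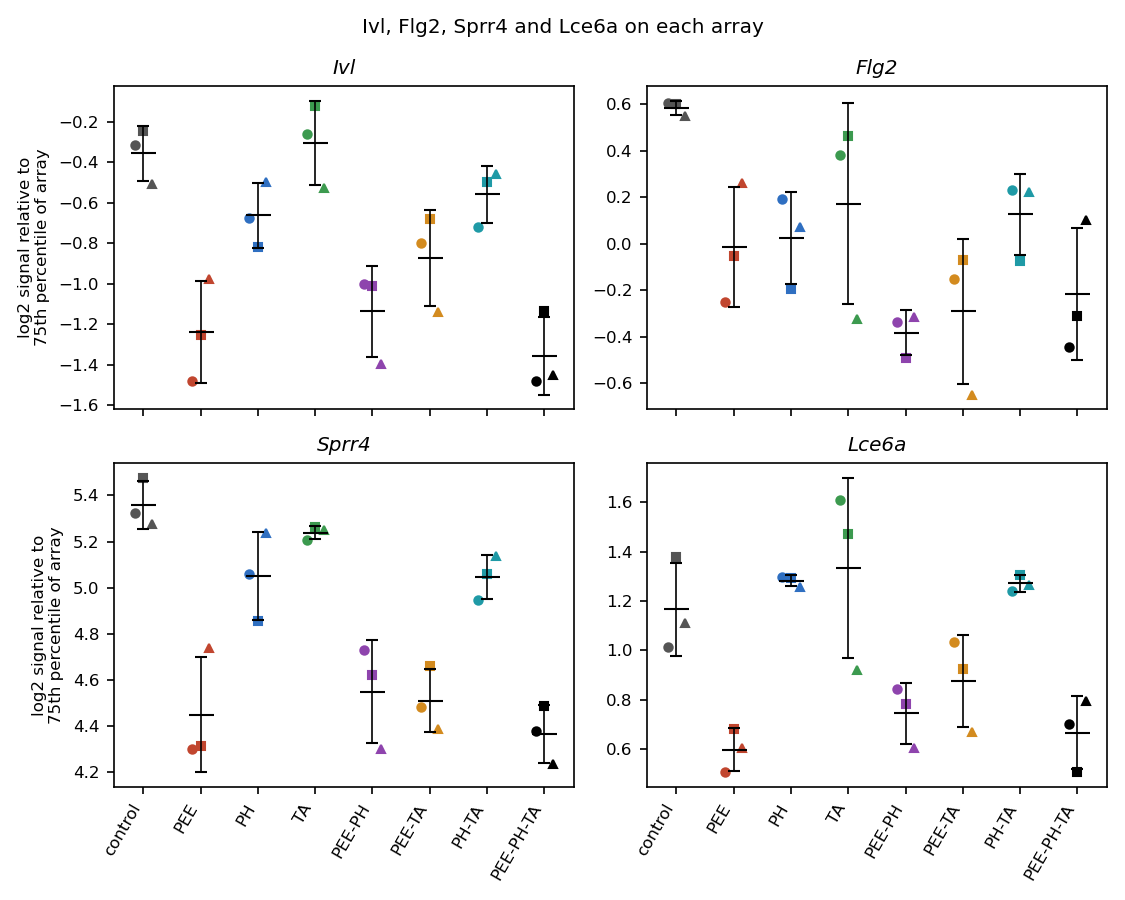
Log2 signal relative to the 75th percentile of the array for Ivl, Flg2, Sprr4 and Lce6a in the 8 groups, with points for single arrays (circle, square and triangle for replicates 1, 2 and 3) and the group mean and SD. Ivl and Sprr4 are below every control array with PEE, PEE-PH, PEE-TA and PEE-PH-TA.

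Whether 2 compounds together gave other than the sum of their log2 effects was tested for each pair. Each test averaged the departure from the sum over absence and presence of the remaining compound. For PEE with PH and for PEE with TA, 0 members passed, as did 0% of all genes, and 0 and 0 members passed after quantile normalization. At an unadjusted p under 0.05 by limma there were 0 and 10 members, against 4.21% and 14.5% of all genes. For PH with TA 7 members passed, all lower than the sum and all Lce1 genes, against 13.7% of all genes (9.85% above the sum, 3.82% below). The median Lce1 departure from the sum was -0.44. With the covariate 0 passed. In every Lce3 gene the departure for PH with TA was negative without PEE and positive with PEE, at -0.76 and 0.26 for Lce3c. The Sprr2 genes other than Sprr2a3 and Sprr2i did likewise, at -0.89 and 0.68 for Sprr2d. Such opposite departures partly cancel in the average, and they were not tested separately.

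**Figure D5:**
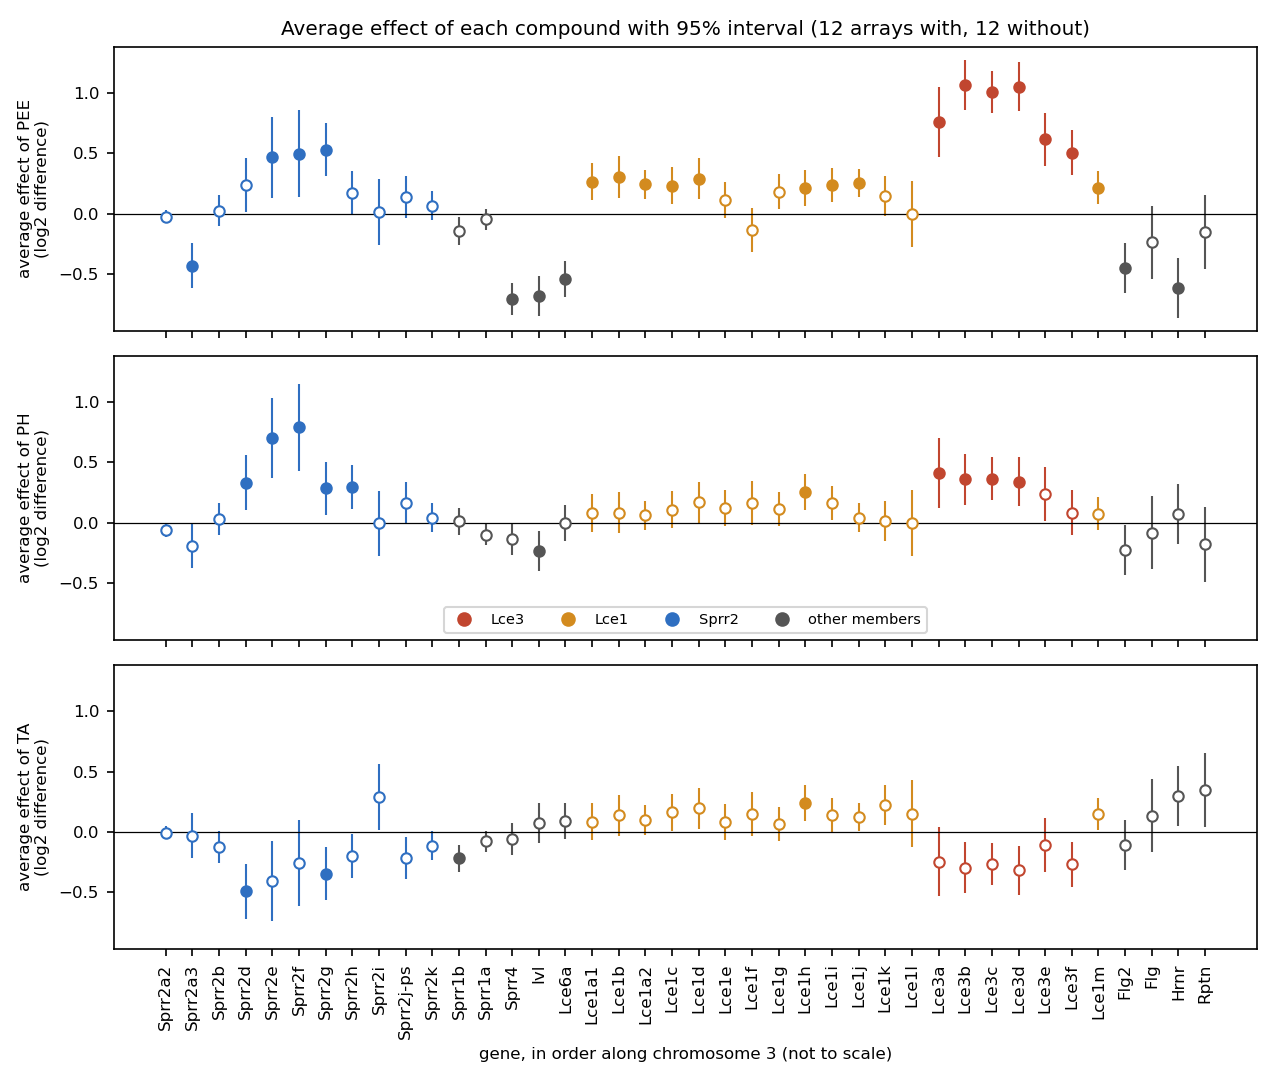
Average effect of PEE, PH and TA on the log2 signal of the 40 tested genes in order along chromosome 3, from 12 arrays with and 12 without the compound. Points are estimates with 95% intervals, and filled points have an adjusted p under 0.05. With PEE the Lce3 genes lie at 0.51 to 1.07, and Sprr2g, at 0.53, lies above the lowest of them, Lce3f. Sprr2f and Sprr2e lie highest with PH, at 0.79 and 0.70.

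Other genes of envelope assembly were counted beside the shares of all genes that the average effect of PEE raised (12.8%) and lowered (14.2%). Of 31 further precursors, crosslinking enzymes and corneodesmosome genes tested, it raised 3 and lowered 5, near those shares. Klk14, a protease that cleaves corneodesmosomes, fell by 2.15 ± 0.11 on the log2 scale, and Serpinb2, a serine protease inhibitor of the envelope, by 0.68 ± 0.09. Aloxe3 and Abca12, which serve the lipid barrier, rose by 0.48 ± 0.06 and 0.27 ± 0.06. Of 30 regulators of epidermal differentiation, 10 rose and 5 fell, the latter near the share of all genes, among them the transcription factor genes Cebpa (0.38 ± 0.04) and Fosl1 (0.28 ± 0.06) on the rising side and Maf (-0.28 ± 0.06) on the falling side. Of 11 S100 genes of the same chromosomal complex, 0 rose and 3 fell.

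Markers of other follicle and skin compartments also moved with the groups. Of 8 tested markers of interfollicular and upper epidermis, 0 rose and 4 fell in the average effect of PEE, which lowered 14.2% of all genes, with Krt10 at -0.64 ± 0.10 and Krt78 at -0.44 ± 0.07. Their summed linear level was 228 to 246 in control, 196 to 219 with PEE and 183 to 191 with PEE-PH-TA. The part of this in the falls of Ivl, Flg2 and Hrnr was not tested. Inner root sheath markers rose in 6 of 7 for PEE-PH and for PEE-TA, the mixtures in which most Lce1 genes rose and which raised 14.9% and 10.2% of all genes, and their summed level was 492 to 661 in control, 893 to 939 under PEE-PH and 909 to 973 under PEE-TA. That of the markers of stressed keratinocytes was 1166 to 1208 in control and 1060 to 1216 with PEE, where the Lce3 genes rose. Skeletal muscle markers, at 20.1 to 24.5 in control, reached 40.0 to 50.8 under PEE-PH and 34.8 to 60.3 under PEE-TA. Every marker in the last 3 of these lists was above background on all 24 arrays, and the part of these changes in the results was not tested.

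Over the 7 comparisons with control and the 3 average effects, 32 of the 40 members passed in at least 1. Of these, 21 were only ever higher, 9 only ever lower and 2 both. The 8 that passed in none were Flg, Rptn, Lce1f, Lce1l, Sprr2b, Sprr2i, Sprr2j-ps and Sprr2k. The share of all genes tested that passed in at least 1 of the same comparisons was not counted. These counts therefore do not set the members apart from other genes, and the shares for single comparisons are given above.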

How the data were processed

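The deposited scanner files give signal intensity for 1 green channel per array, read per the file headers by Agilent Feature Extraction 12.0.3.1 with probe positions on NCBI37 (mm9). The labels name biotin as the label, and the intensity was used as given. For testing, the deposited processed signal intensity was put on a log2 scale, and the 75th percentile of the array's non-control spots was subtracted. Outlier-flagged spots were left out and spots of a probe averaged. A gene was tested if its probe was well above background on all 3 arrays of at least 1 group. Each of the 8 groups had 1 mean in a limma 3.58.1 model (R 4.3.3) over all 24 arrays with 16 residual degrees of freedom, with Benjamini-Hochberg adjusted p-values in each of 15 comparisons. These measure the spread between these samples, and 3 arrays a group limit the precision.

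Log2 values also stand in a table the authors deposited, whose background and normalization steps are not given in the sources used here. Its column medians were 3.73 to 3.78. Over 28722 probes above background on every array, all 24 columns were closest to their own scan (r of differences from the probe mean 0.934 to 0.971, slopes 0.942 to 0.980), so it is a log2 scale of the same direction and was used as an alternative.

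The members, lists and comparisons were chosen with earlier results of these data known. Flg, Flg2, Hrnr, Ivl and Rptn were always named, with up to 16 Sprr and Lce genes that passed, by largest difference, and up to 10 of these with all array values; Sprr2d was given them as well after its values were seen. From each further list up to 3 risers and 3 fallers were named. The comparisons of PH-TA against PH and of PEE-PH-TA against PH-TA were added after the data were seen.

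The other settings tried were normexp (offset 50) or quantile normalization, that table, testing dim probes too, averaging the probes of a gene, the replicate number as a block, a trended and robust prior, the array signal as a covariate, only the arrays compared, and leaving out each array or number. In data simulated for PEE-PH-TA against control with 22058 genes, 100 genes were shifted by log2 0.5 and 100 by log2 1. Noise was drawn independently for each gene. Of these, 42% and 78% were recovered, with 6 false calls. No shift shared by a slide or an array was simulated, and many more genes were called in the data. These rates therefore need not hold for the data. Tools also included data.table (1.17.8) and, for the plots, matplotlib (3.10.9).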

Additional observations from a re-analysis of the deposited data

Results flagged for a closer look

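The effect of PH on 7 Lce1 genes differed between follicles without and with TA, by the limma test of that difference averaged over absence and presence of PEE. These were 17.5% of the members, while 13.7% of all genes passed this test. The log2 difference of the effects was -0.59 ± 0.16 for Lce1k (limma adjusted p = 0.018), -0.54 ± 0.16 for Lce1d (0.034), -0.50 ± 0.15 for Lce1c (0.0291) and -0.50 ± 0.13 for Lce1m (0.0151). It was -0.48 ± 0.14 for Lce1h (0.0313), -0.40 ± 0.12 for Lce1a2 (0.0301) and -0.34 ± 0.11 for Lce1j (0.0462). For Lce1k the departure was -0.27 without PEE, where it differed from control by 0.22 with PH, 0.48 with TA and 0.43 with PH-TA. It was -0.90 with PEE, where the differences from control were 0.19 for PEE alone, 0.58 once PH was added, 0.73 once TA was added and 0.23 for all 3 compounds. The 2 departures were not tested against each other. The count of 7 was 2 without control replicate 3, PEE replicate 1, TA replicate 1 or 2, or PEE-PH replicate 1. It was 4 without PEE-PH replicate 2, PH replicate 3 or PEE-PH-TA replicate 2, and 3 without PEE-TA replicate 2 or PH-TA replicate 3. It was 13 without TA replicate 3. With the array signal as a covariate it was 0, and the part of that signal was not tested further.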

How the results depend on the processing

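Of 147 calls of a member in a comparison, recomputed under the alternatives in 3288 values, 2694 kept direction and threshold, 587 kept the direction only and 7 reversed. Sprr1a reversed with PEE-PH (0.045 after quantile normalization, 0.033 in the table of the authors) and with PH-TA (0.025 and 0.0062), Sprr2a2 with PEE-PH (0.00085 and 0.014), and Lce1k with PH-TA under the array signal as a covariate (-0.055). The cause was not tested. That covariate left 2 members called with PH, 8 with PEE-PH, 0 with PH-TA, 0 for the average effects of PH and of TA, 0 for PH with TA beyond the sum, 0 for PH-TA against PH and 4 when PEE was added to PH-TA. Quantile normalization gave 8 with PH-TA. Normexp gave 11 with PH-TA, 19 for the average effect of PH, 15 for that of TA (9 higher, 6 lower; 0 and 3 in the table of the authors), 12 for PH with TA and 13 for PH-TA against PH. Without the filter on dim probes, 36588 genes were tested, and the counts were 2 with PH, 8 for the average effect of TA, 3 for PH with TA and 10 for PH-TA against PH. The mean of all probes gave 2 for PH-TA against PH, and only the compared arrays gave 1 with PH. The split of calls with the covariate was 5 higher and 2 lower with PEE.

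Leaving out single arrays or a replicate number gave counts of 4 to 10 with PEE, 0 to 6 with PH, 0 to 1 with TA, 14 to 27 with PEE-PH, 7 to 18 with PEE-TA, 0 to 12 with PH-TA and 5 to 18 with PEE-PH-TA. They were 14 to 25, 3 to 13 and 0 to 7 for the average effects of PEE, PH and TA, 0 to 0, 0 to 0 and 0 to 17 for the sums of PEE with PH, PEE with TA and PH with TA, 0 to 8 for PH-TA against PH and 3 to 17 when PEE was added to PH-TA. For the average effect of TA, the count of 4 was 7 without PEE-TA replicate 1 and 2 without control replicate 3, PEE replicate 1, PH replicate 2, PEE-PH replicate 2 or 3, PEE-TA replicate 2 or 3, PH-TA replicate 1 or 2, or PEE-PH-TA replicate 1.

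Replicate numbers matched slides. Deviations of same-numbered arrays from their group means correlated at -0.19 to 0.35, with a median of 0.10 and over 0.1 in 44 of 84 pairs. The main model had no term for the number, and these values do not show that it can be ignored. It was tried as a block. With the replicate block 8 members were called with PH-TA and 2 for PH-TA against PH, and the other counts stayed within 1.5 times.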
